A study of Mus musculus with 84 samples.

Results

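Broad H3K27ac domains of mouse colon epithelium are long stretches of chromatin marked by acetylated lysine 27 of histone H3. Each held a peak in every library of mice fed a high-fat or low-fat diet for 20 weeks, though not every library covered its whole length. They were obtained by merging the overlapping peaks of 12 H3K27ac lists and keeping the merged regions that were at least 10000 bp wide and had a peak in all 12 lists. Of 51211 merged regions, 22365 had a peak in all 12 lists and 3123 were broad domains, or 6.10% of all merged regions and 14.0% of those in every list. The domains were chosen by the width and presence of H3K27ac peaks in these 12 lists, so those values are given as a description without a test.

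The 12 lists came from C57BL/6 mice that were bought at 5 weeks of age, acclimated for 1 week, housed singly and fed a high-fat diet (HFD, 60% fat) or a low-fat diet (LFD, 10% fat) for 20 weeks, with 3 libraries for each sex and diet. H3K4me1 was mapped in 3 libraries for each of the same groups, and the nuclear receptor HNF4α in 2 libraries per diet, in males only. Male germ-free C57BL/6 mice of 6 weeks of age received stool bacteria of HFD-fed (HFB) or LFD-fed (LFB) male donors 4 times a week for 5 weeks while eating HFD or LFD, which gave the groups HFDHFB, HFDLFB, LFDHFB and LFDLFB. H3K27ac was mapped in 11 recipient libraries, 3 per group and 2 in HFDHFB, and RNA was sequenced in 12, 3 per group. Chromatin was from isolated epithelium, whereas RNA was from scraped colon, which also holds other cell types, and no RNA-seq of the 20-week mice was analysed here. No depth is known for ChIP-seq, whose lists give positions only. The RNA libraries held 39904191 to 48026846 counted reads. The ChIP-seq replicates are described as biological, but neither the labels nor the methods tie each library to an animal, so p-values measure the spread between libraries.

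H3K27ac is laid down by the acetyltransferases p300 and CBP and marks active promoters and enhancers, while H3K4me1 marks enhancers whether active or poised. Most acetylated regions are short. Long acetylated stretches, often called super-enhancers or stretch enhancers, hold several enhancers close together and are known to lie at genes that define a cell type. HNF4α is a nuclear receptor that binds DNA as a homodimer at direct repeats of an AGGTCA-like half-site and is required for the differentiation of intestinal epithelium.

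The sequences below show HNF4α sites inside broad domains. Each is 81 bases of mm9 (NCBIM37) around a site that had an HNF4α peak in all 4 libraries and carried 1 of 4 searched core motifs (CAAAGTCCA, CAAAGTTCA, CAAAGGCCA or CAAAGGTCA, on either strand), which is in capitals. They were taken from the named domains that held such a site outside exons and from 6 further domains. The latter were reached by going down the expression ranking of the gene lists described further on, without marker and housekeeping lists. Domains without such a site were passed over, so genes of higher expression are missing. In each domain the motif nearest the centre of its HNF4α site was taken. Sequences are printed 5′ to 3′ on the strand that reads the motif, and intergenic means outside the bodies of protein-coding genes.
Hoxa cluster, chr6:52220904-52220984, minus strand, intergenic: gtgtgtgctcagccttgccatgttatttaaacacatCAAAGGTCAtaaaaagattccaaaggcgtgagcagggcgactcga
Hsd17b2, chr8:120219754-120219834, minus strand, intergenic: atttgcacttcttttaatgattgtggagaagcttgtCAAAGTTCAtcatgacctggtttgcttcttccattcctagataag
Mgat4a, chr1:37579146-37579226, plus strand, intron of Mgat4a: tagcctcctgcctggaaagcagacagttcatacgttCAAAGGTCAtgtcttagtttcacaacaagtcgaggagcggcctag
Zmiz1, chr14:26270695-26270775, plus strand, intergenic: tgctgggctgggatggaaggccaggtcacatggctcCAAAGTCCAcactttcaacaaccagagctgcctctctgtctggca
Guca2a, chr4:119304313-119304393, plus strand, intergenic: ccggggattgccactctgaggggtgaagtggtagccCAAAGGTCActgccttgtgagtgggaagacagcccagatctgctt
Krt19, chr11:100025855-100025935, minus strand, intergenic: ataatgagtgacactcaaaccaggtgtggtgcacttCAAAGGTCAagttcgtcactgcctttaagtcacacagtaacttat
Slc26a3, chr12:32122912-32122992, plus strand, intron of Slc26a3: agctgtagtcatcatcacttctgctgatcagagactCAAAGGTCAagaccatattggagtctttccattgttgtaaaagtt
Slc9a3r1, chr11:115026606-115026686, minus strand, intron of Slc9a3r1: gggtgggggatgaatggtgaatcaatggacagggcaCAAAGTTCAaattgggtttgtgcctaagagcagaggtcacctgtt
Ezr, chr17:6966588-6966668, plus strand, intron of Ezr: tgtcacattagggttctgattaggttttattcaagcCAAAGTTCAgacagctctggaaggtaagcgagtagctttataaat
Lgals4, chr7:29627379-29627459, minus strand, intergenic: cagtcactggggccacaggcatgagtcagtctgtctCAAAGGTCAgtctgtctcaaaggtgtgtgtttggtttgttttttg
The most frequent core here, CAAAGGTCA, stood in the sites of the Hoxa cluster, Mgat4a, Guca2a, Krt19, Slc26a3 and Lgals4. The Slc26a3 site lay 0.136 kb from a transcription start site (TSS) of that gene, which encodes the chloride and bicarbonate exchanger of the colonocyte surface, and the Krt19 site lay 18.5 kb from its TSS.

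The domains were 10000 to 100000 bp wide, with a median of 13600 bp and quartiles of 11400 and 18000 bp, and covered 50.7 Mb in all. The 19242 regions that had a peak in all 12 lists but were narrower had a median width of 4200 bp. Of the domains, 1836 were under 15000 bp, 707 were from there to under 20000 bp, 413 to under 30000 bp, 138 to under 50000 bp and 29 were wider. At the threshold, 125 domains were exactly 10000 bp and 146 constant regions were one window of 200 bp narrower. The median covered width was 7200 bp in the former and 7000 bp in the latter. A TSS lay in 41.6% and 38.4% of them, and an HNF4α site in 45.6% and 35.6%.

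A domain was mostly not 1 unbroken peak. Windows with a peak in all 12 lists made up 52.5% of the domains' width and windows with a peak in at least 6 lists 80.2%, while 4.94% of the width rested on 1 list. In 324 domains every library had a single peak of at least 10000 bp, and in 1101 no library had one. The median domain was split into 2 pieces per library, and 61 domains were 1 piece in all 12. Domains lay on every chromosome but Y, from 24 on the X chromosome, or 5.23% of its constant regions, to 277 on chromosome 11, or 16.9%. Neighbouring domains were a median of 170.2 kb apart, and 445 of 3103 neighbouring pairs (14.3%) were within 10 kb of each other. Their median GC content was 46.3%, against 46.9% in narrower constant regions and 44.9% in the other merged regions.

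A protein-coding TSS lay in 1668 of the domains (53.4%), against 43.7% of narrower constant regions, and these TSSs belonged to 1953 genes. Most of those domains, 1389, held the TSS of 1 gene, 41 held at least 3 genes and the largest number was 9. Introns made up 59.4% of domain base pairs, intergenic sequence 34.7% and exons 5.97%. The other 1455 domains held no protein-coding TSS, and TSSs of non-coding genes were not considered. Of these, 753 (51.8%) were inside the body of a protein-coding gene and 582 (40%) were outside such bodies. From any protein-coding TSS, 328 (22.5%) were more than 50 kb away. The widest without a TSS was 51000 bp, and the TSS nearest to it was that of Myo1e, a motor protein. The next was 49000 bp, near Tcf7l2, which encodes the transcription factor through which Wnt signals act in the intestine.

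The gene lists describe which genes lay in domains. They were chosen with earlier results of these data known, so their shares are a description. The lists also share genes, so their shares do not count separately. All epithelium markers in domains except Muc13, a goblet cell gene, were also junction and cytoskeleton genes. Slc26a3, Car4, Guca2a, Slc9a3 and Scnn1a were both absorptive colonocyte markers and transport genes. Of all 22238 protein-coding genes, silent ones included, 8.78% had a TSS in a domain. Of the 1000 most highly expressed genes in the recipients' RNA, 42% had one, and the lists were not matched for expression. Among intestinal transcription factors the count was 42 of 53 (79.2%), among junction and cytoskeleton genes 41 of 52 (78.8%), and among epithelium markers 10 of 11 with an annotated TSS. For markers of absorptive colonocytes it was 8 of 10, for colonocyte transport genes 25 of 46 (54.3%), for goblet cell genes 12 of 22 (54.5%), for AP-1 and immediate early genes 12 of 23 (52.2%), and for stem cell and Wnt genes 13 of 32 (40.6%). Housekeeping genes, which every cell expresses, had 6 of 17 (35.3%) in a domain and the remaining 11 in a narrower constant region. Of markers of cells other than epithelium, 0 of 10 leukocyte, 0 of 7 fibroblast, 0 of 7 smooth muscle, 0 of 6 endothelial and 0 of 7 neuron and glia genes had a TSS in a domain, and 1 of 6 adipocyte genes did, the lipid droplet gene Cidec. Of 8 enteroendocrine markers 0 did either, although these cells are epithelial, and 4 of 9 goblet markers did. Of the 10 epithelium markers in domains, Epcam, Vil1 and Krt8 are among those that define the labelled tissue.

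Among the listed transcription factors, which hold no gene of the Hoxa cluster, Hnf4a itself had a domain of 70600 bp. Hoxb13 lay in one of 44600 bp, and the ETS factors Ehf and Elf1 each in one of 39600 bp. Cdx2, which specifies intestinal epithelium, lay in a domain of 22600 bp with 2 HNF4α sites, and Klf5, a factor of crypt cells, in one of 27400 bp with 1. Among junction genes Myh9, Actn4 and Myo1d had domains of 59800, 59400 and 59000 bp. The claudins Cldn3 and Cldn4, which seal tight junctions, shared a domain of 53600 bp with 4 sites, and Cdh1, the E-cadherin of adherens junctions, had one of 51200 bp with 3. Transport genes had narrower ones, up to 44600 bp at the monocarboxylate transporter Slc16a1 and 43400 bp at the glucose transporter Slc2a1. Atp1b1, a subunit of the sodium pump, lay in one of 34400 bp with 4 HNF4α sites, and the carbonic anhydrase Car4 in one of 25400 bp with 3. Goblet cell genes ranged from 55000 bp at Gcnt3 and 54600 bp at the transmembrane mucin gene Muc13 to 10200 bp at Muc2, the secreted gel-forming mucin.

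**Figure D1:**
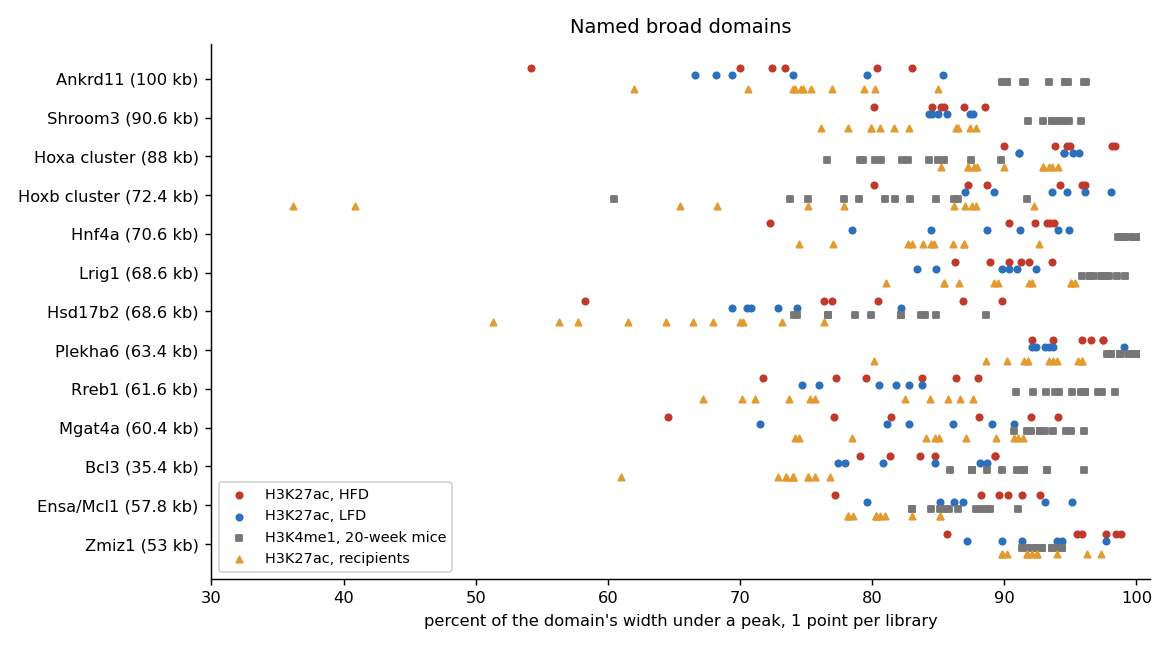
Percent of the width of 13 named broad domains under a peak (x axis), with 1 point per library. Red and blue circles are the H3K27ac libraries of mice on HFD and LFD for 20 weeks, grey squares their H3K4me1 libraries and orange triangles the H3K27ac libraries of recipients. The Hoxb cluster had the lowest recipient value, 36.2%, and the lowest H3K4me1 value, 60.5%, and the lowest red circle at Ankrd11 was 54.2%.

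The 10 widest domains and the 5 with the most HNF4α sites are named here, 13 in all because Shroom3 and Hsd17b2 are in both sets. The widest, 100000 bp (chr8:125424801-125524800 in mm9), lay at Ankrd11, a chromatin regulator, with 97.0% of it in introns. H3K27ac covered 54200, 72400 and 73400 bp of it in HFD males, 85400, 74000 and 79600 bp in LFD males, 70000, 83000 and 80400 bp in HFD females and 66600, 69400 and 68200 bp in LFD females. In males all LFD values were above all HFD values and in females all HFD values were above all LFD values, so the order of the diets differed between the sexes, and the lowest value was that of HFD male replicate 1. Shroom3, which shapes the apical surface of epithelial cells, had a domain of 90600 bp with 5 HNF4α sites. H3K27ac covered 72600, 76600 and 77400 bp of it in HFD males, 79200, 77600 and 79400 bp in LFD males, 78800, 80200 and 77200 bp in HFD females and 77000, 76400 and 76600 bp in LFD females. It too had LFD above HFD in every male library and HFD above LFD in every female library, which 14 domains did in either order (0.448%, against 0.277% of all regions with a peak in every list). These counts rest on base pairs. As a share of the library's peak base pairs 13 domains (0.416%) separated in opposite directions, Ankrd11 and Shroom3 not among them. The share over all regions was not counted on that scale. Per Mb of all peaks of the library, Ankrd11 had 608 to 738 bp in HFD females and 640 to 692 bp in LFD females, which overlap. Shroom3 had 665 to 709 bp in HFD females and 735 to 762 bp in LFD females, the opposite order, and its males overlapped.

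The Hoxa and Hoxb clusters, whose genes set position along the body axis, were among the widest. The Hoxa domain (chr6:52138401-52226400) was 88000 bp wide and spanned Hoxa3 to Hoxa13, and H3K27ac covered 79200 to 86600 bp of it. The Hoxb domain was 72400 bp wide and spanned Hoxb4 to Hoxb9 with the predicted gene Gm53. In the 20-week mice 58000 to 71000 bp of it were covered. In recipients it was 29600 and 63000 bp in HFDHFB and 66800, 63400 and 63600 bp in HFDLFB, and 26200, 49400 and 47400 bp in LFDHFB and 62400, 56400 and 54400 bp in LFDLFB. Recipients of HFB were thus below those of LFB on both diets, most of all 1 library of each HFB group. In limma the log2 difference between HFDHFB and HFDLFB was -0.58 (SE 0.36, unadjusted p 0.147) and that between LFDHFB and LFDLFB -0.54 (SE 0.32, unadjusted p 0.129), and neither passed after adjustment (limma adjusted p 1 and 0.946).

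The Hnf4a domain (chr2:163354201-163424800) was 70600 bp wide and held 4 HNF4α sites bound in all libraries, at the gene of the receptor itself. Covered H3K27ac was 51000, 66000 and 65200 bp in HFD males and 67000, 66400 and 62600 bp in LFD males. In females it was 65800, 66200 and 63800 bp with HFD and 55400, 59600 and 64400 bp with LFD. The diets overlapped in both sexes, and HFD male replicate 1 was again lowest. H3K4me1 covered 98.6% to 100% of this domain in every library. Lrig1, a negative regulator of growth factor receptors in intestinal stem cells, had 68600 bp and no HNF4α site bound in all libraries, while Hsd17b2, an enzyme that inactivates sex steroids, also had 68600 bp and 6 such sites. Bcl3, a regulator of NF-κB, had 6 sites in 35400 bp, the most per width among the named. The others were Plekha6 at 63400 bp with 3 sites, the Ras-responsive factor Rreb1 at 61600 bp with 2, the glycosyltransferase gene Mgat4a at 60400 bp with 3, Ensa with the survival gene Mcl1 at 57800 bp with 5, and the transcriptional co-regulator Zmiz1 at 53000 bp with 5. HFD male replicate 1 had the lowest value of the 12 libraries in 10 of the 13, at Plekha6 together with LFD male replicate 3.

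**Figure D2:**
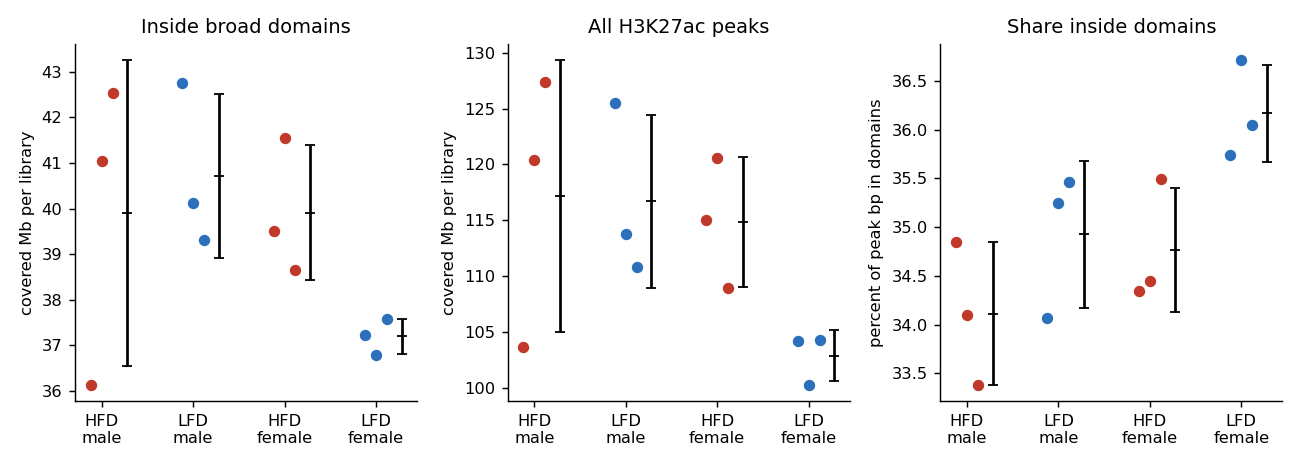
Base pairs of the 3123 broad domains under an H3K27ac peak in each of 12 libraries (y axis, Mb) by sex and diet, with the mean and SD (bars) of each group of 3. LFD females, at 36.8 to 37.6 Mb, lay below HFD females, and HFD male replicate 1, at 36.1 Mb, was the lowest library.

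Diet and covered width were then compared. In males 36.1, 41.1 and 42.5 Mb of the domains were covered with HFD and 42.7, 40.1 and 39.3 Mb with LFD, or 39.9 ± 3.35 and 40.7 ± 1.80 Mb (SD, n = 3 each). In females the values were 39.5, 41.5 and 38.7 Mb with HFD and 37.2, 36.8 and 37.6 Mb with LFD, or 39.9 ± 1.48 and 37.2 ± 0.391 Mb. The diets overlapped in males and did not overlap in females, where HFD was higher by 2.71 Mb on average. Without HFD male replicate 1 the male difference, HFD minus LFD, went from -0.819 to 1.05 Mb, and without LFD male replicate 1 it was 0.166 Mb. All peaks together differed in the same way, with 109 to 121 Mb in HFD females and 100 to 104 Mb in LFD females. As a share of each library's peak base pairs the domains made up 34.3, 34.5 and 35.5% in HFD females and 35.7, 36.7 and 36.04% in LFD females, which is the opposite order.

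Single domains followed this. In females, 441 domains were wider in all HFD libraries than in any LFD library (14.1%, against 8.47% of all regions with a peak in every list), and 19 were wider with LFD (0.608%, against 1.22%). In males 60 were wider with HFD (background 2.98%) and 99 with LFD (background 2.71%). When the covered base pairs were divided by all peak base pairs of the library, 85 female domains were wider with HFD (background 3.52%) and 428 with LFD (background 8.95%), so the direction in females turned with the scaling. In males the counts were then 73 (background 4.27%) and 209 (background 5.45%). Depth is unknown for these libraries, and whether it moved the peak totals was not tested.

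In both sexes at once, 5 domains were wider with HFD (background 0.259%) and 1 with LFD (background 0.0402%). As shares they were 2 (background 0.188%) and 20 (background 0.411%). The domains were chosen for naming after their values were seen. Those wider with HFD lay at Appl2, an adaptor of adiponectin signalling, at Plek2, at Cmas, an enzyme of sialic acid activation, and near Gm9887 and Zdhhc13. At Cmas the covered widths were 8600, 8800 and 9800 bp in HFD males, 8000, 7600 and 6600 bp in LFD males, 9400, 9800 and 9400 bp in HFD females and 8000, 8400 and 7800 bp in LFD females. None of the 5 held as a share. The domain wider with LFD lay at Atp11b, a phospholipid flippase, with 10800 to 13200 bp in the 6 HFD libraries and 13400 to 14600 bp in the 6 LFD libraries, and it also held as a share.

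H3K4me1 was not used to choose the domains. It covered 85.4% to 88.4% of their base pairs across the 12 libraries, and every domain had an H3K4me1 peak in every library. By diet, no domain passed the test of covered width. This measure leaves out peak height, and most of the domains' width was already covered, so a gain had little room to register. The result is therefore not read as a lack of diet effect on H3K4me1. Limma on log2(covered base pairs + 200) with sex as a term called 0 of 3123 domains at an adjusted p under 0.05, against 6 of 48378 regions fitted (0.0124%). At an unadjusted p under 0.05 there were 134 domains (4.29%) and 2009 of all regions (4.15%), and the median log2 difference over domains was -0.00. The smallest p among domains was at the one nearest to Cxcl13, a B-cell chemokine gene, with a log2 difference of 0.18 (HFD minus LFD, SE 0.03) and a limma adjusted p of 0.357.

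**Figure D3:**
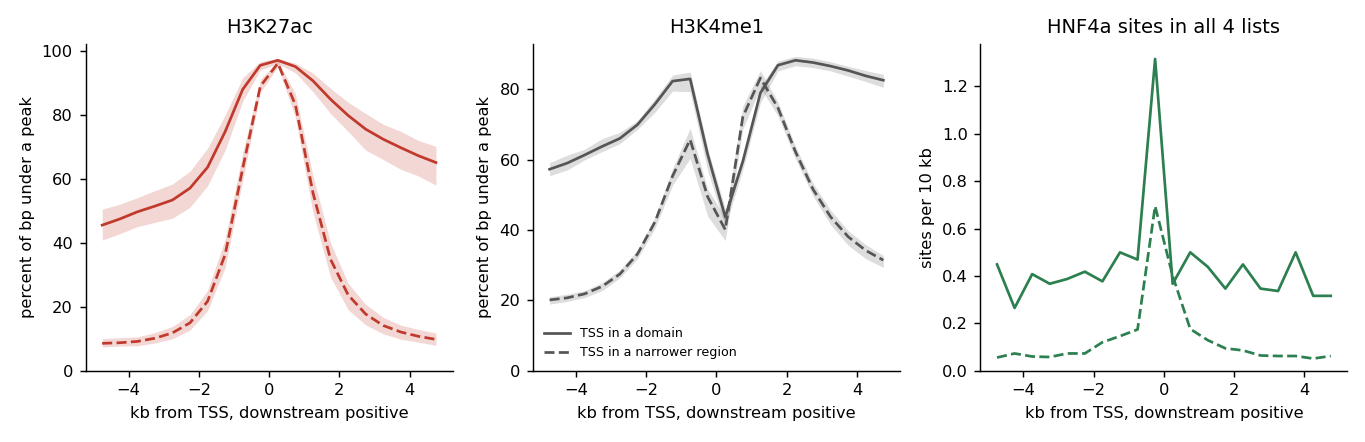
Coverage by H3K27ac and H3K4me1 peaks (mean of 12 libraries, shading from the lowest to the highest) and HNF4α sites per 10 kb within 5 kb of TSSs (x axis, kb, downstream positive), for TSSs in broad domains (solid) and in narrower constant regions (dashed). H3K27ac at 4.5 to 5 kb downstream was 65.1% against 9.81%, and H3K4me1 dipped to 43.7% just after TSSs in domains.

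Around the 1962 TSSs in domains, H3K27ac covered 97.0% of base pairs in the first 0.5 kb downstream and 65.1% at 4.5 to 5 kb downstream. For TSSs in narrower regions the same windows had 96.1% and 9.81%, as their width requires. H3K4me1 dipped just downstream of the TSS, to 43.7% in domains and 40.1% in narrower regions. At 4.5 to 5 kb downstream it was 82.6% in domains and 31.4% in narrower regions. HNF4α sites were most dense in the 0.5 kb before the TSS, at 1.31 per 10 kb in domains and 0.694 in narrower regions.

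In the recipients, whose libraries the rule did not use, 3116 of the 3123 domains (99.8%) had a peak in all 11 libraries, against 83.2% of the narrower constant regions. The covered share of domain base pairs was 65.0% to 77.4%. It was 35.2 and 39.2 Mb in HFDHFB, 38.0, 36.6 and 37.8 Mb in HFDLFB, 35.6, 34.2 and 35.2 Mb in LFDHFB and 38.4, 36.6 and 32.9 Mb in LFDLFB. The groups that shared a diet overlapped. The same rule applied to the recipients' 11 lists gave 3085 domains, of which 2385 (77.3%) overlapped one of the 20-week domains, and 2365 (75.7%) of the latter overlapped one of the former.

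No domain passed the test of donor bacteria in recipients. Between HFDHFB and HFDLFB, limma called 0 domains, 27 had an unadjusted p under 0.05 (0.865%, all regions 4.29%), and 159 of 41273 regions fitted were called (0.385%). Without HFDHFB replicate 2, 1 domain and 454 regions were called, and HFDHFB was then a single library that was assumed to vary like the others. Between LFDHFB and LFDLFB, limma called 0 domains, 46 had an unadjusted p under 0.05 (1.47%, all regions 5.12%), and 89 regions were called (0.216%). Both comparisons were from 1 fit of the 4 groups, which moderated each region's spread toward that of all regions fitted, most of them narrower than domains. The counts at an unadjusted p under 0.05 depended on the filter. With no filter there were 110 domains for HFDHFB against HFDLFB (3.52%, all regions 4.13%). For LFDHFB against LFDLFB there were 169 (5.41%, all regions 5.11%). The low shares of domains are therefore not read as constancy.

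**Figure D4:**
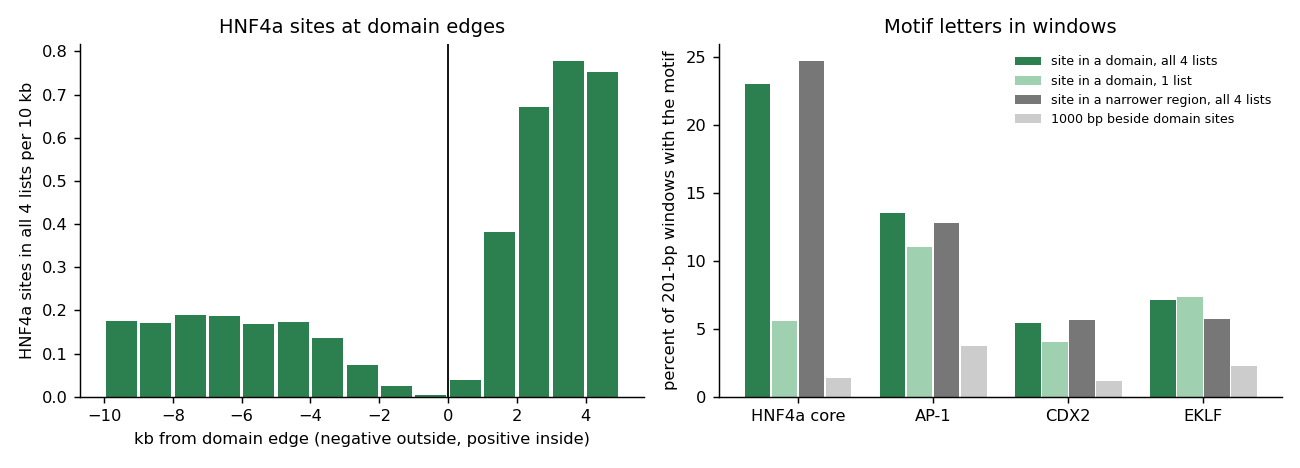
Left, HNF4α sites bound in all 4 libraries per 10 kb (y axis) by distance from the domain edge (x axis, kb, inside positive). The edge is where the merged H3K27ac peaks end, so little acetylation lies just outside it by the rule. Right, percent of 201-bp windows with the letters of each of 4 motifs, for domain sites in all 4 lists or in 1 list, sites in narrower regions and windows 1000 bp beside domain sites. Density was 0.00480 per 10 kb just outside and 0.778 at 3 to 4 kb inside, and the HNF4α core was in 23.0% of domain sites in all 4 lists.

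HNF4α sites were denser in the domains as a whole than in narrower constant regions as a whole or in the other merged regions. Of 49525 merged HNF4α sites, 8494 had a peak in all 4 libraries, and 2889 of these (34.0%) had their centre in a domain. That is 0.570 sites per 10 kb, against 0.465 in narrower constant regions and 0.216 in the other merged regions. At least 1 such site lay in 1891 domains (60.6%), against 19.8% of narrower constant regions, which are shorter. The domains held 0 sites in 1232 cases, 1 in 1147, 2 in 549, 3 in 149, 4 in 35, 5 in 9 and 6 or more in 2. Density changed little with width, at 0.549 per 10 kb in domains under 15000 bp, 0.601 and 0.5997 in the next classes and 0.540 from 30000 bp, and narrower regions of 5000 to 10000 bp had 0.518. Domains without a TSS had 0.626 per 10 kb and those with one 0.529. In narrower constant regions these values were 0.584 and 0.298, so those without a TSS were above domains with one. All these densities are over whole widths. H3K27ac peaks covered 71.3% to 84.4% of domain base pairs across the 12 libraries, and 60.6% to 73.3% of those of narrower regions.

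Sites were found where the acetylation was constant. Of the domain sites, 92.5% lay in windows with H3K27ac in all 12 lists, a density of 1.01 per 10 kb against 0.0897 in the rest of the domains. Measured from the edges, density was 0.00480 per 10 kb in the last kb outside, 0.0400 in the first kb inside and 0.778 at 3 to 4 kb inside. Outside it was 0.168 to 0.191 from 10 to 4 kb away. The edges are where the merged H3K27ac peaks of the 12 lists end, so a lack of acetylation there is set by the rule. H3K27ac covered 3.41% of the last kb outside, 34.3% of the first kb inside and 24.7% at 10 to 9 kb outside. The fall in sites at the edge is thus a description and not a separate finding. Domain sites were also seen in more libraries: 35.6% of the 8123 sites in domains were in all 4 lists, against 23.2% in narrower constant regions and 6.32% elsewhere.

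No test of diet was run on HNF4α sites, which had 2 libraries per diet and are described by counts. The libraries had 4981 and 5005 peaks in domains with HFD and 5986 and 4846 with LFD, 21.6% to 22.7% of each library's peaks. Of 4612 domain sites with a peak in both libraries of at least 1 diet, 159 (3.45%) had none with LFD and 320 (6.94%) none with HFD. In narrower regions these shares were 5.30% and 9.74%, and elsewhere 8.75% and 11.8%. The higher of the LFD counts came from LFD replicate 1, which had 27766 peaks in all against 21308 to 22640 in the others.

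The HNF4α core was in 23.0% of the 201-bp windows at domain sites (665 of 2889), against 24.7% at sites in narrower regions and 35.5% elsewhere. Windows 1000 bp to either side of domain sites had it in 1.38%, and domain sites seen in 1 list in 5.55%. The AP-1 motif TGACTCA was in 13.5% of domain sites (beside them 3.74%), the CDX2 motif TTTATGGC or TTTATTGC in 5.40% (beside 1.14%) and the EKLF motif GGGTGTGG in 7.13% (beside 2.23%). Motifs were counted on both strands, and a window without these letters may still be bound. Of the named domains, 4 had a core in an all-library site (Hoxa cluster 1 of 2, Hsd17b2 3 of 6, Mgat4a 1 of 3 and Zmiz1 2 of 5), while Hnf4a had 0 of 4 and Bcl3 0 of 6. Of the promoters (250 bases before to 50 after the TSS) of domain genes, 60.04% were rich in CpG, against 70.6% in narrower regions and 43.0% of all protein-coding genes, and 2.20% held the HNF4α core against 1.68% of all.

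**Figure D5:**
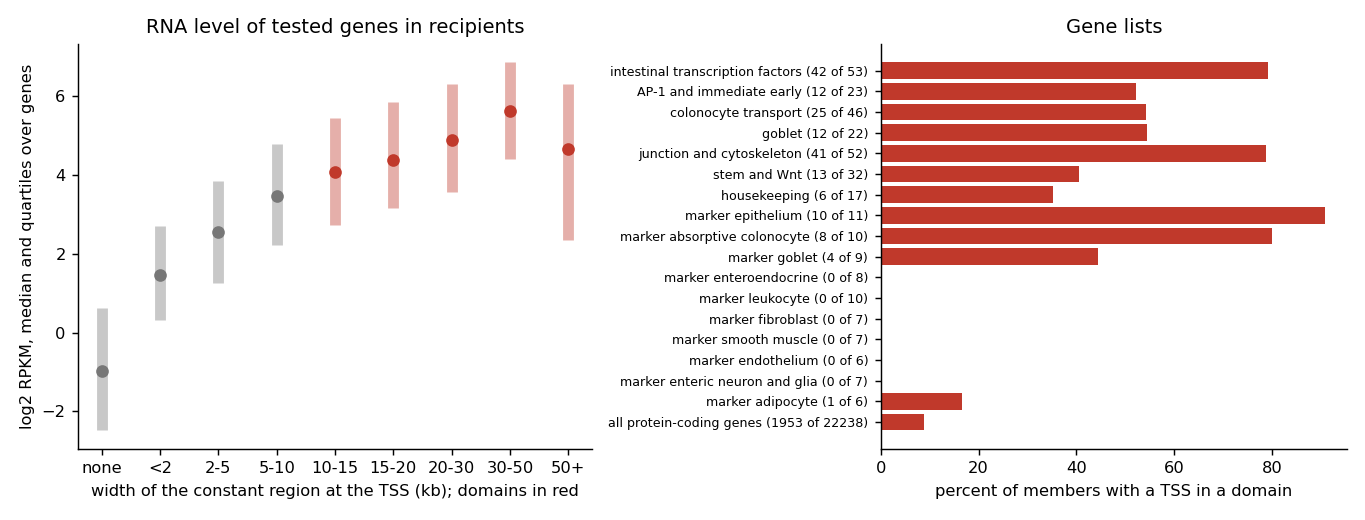
Left, RNA level of tested genes in recipient colon (y axis, log2 RPKM; points are medians over genes and bars the quartiles) by the width in kb of the constant region at their TSS, with domains in red and genes in no constant region first. Right, percent of each gene list with a TSS in a domain, with counts, for lists that share genes and were chosen with earlier results of these data known. Medians went from -0.99 with no constant region to 5.63 at domains of 30000 to 50000 bp, and 79.2% of intestinal transcription factors lay in domains.

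Of the 1953 domain genes, 1774 were in the RNA-seq table by symbol and position and 1752 passed the expression filter, and the values that follow are for those. Their median level was 4.39 on the log2 RPKM scale, or 21.0 RPKM, and 71.2% were at 10 RPKM or more. Genes with a TSS in a narrower constant region had a median of 2.84 (7.16 RPKM, 39.9%) and tested genes in neither -0.99. Since a TSS in a region acetylated in every library selects active genes, and the filter removes silent ones, this is a description. By domain width the median was 4.07 under 15000 bp, 4.40, 4.90 and 5.63 in the next classes and 4.66 from 50000 bp, a class that held 48 tested genes, the Hox genes among them. By number of HNF4α sites it was 4.04 with 0, 4.45 with 1, 4.75 with 2 and 5.83 with 3 or more. Wider domains held more sites (Spearman correlation 0.348), and site number and width were not separated here. Domain genes took 34.8% to 40.3% of each library's counts. They were 6 of the 10 and 49 of the 100 most highly expressed genes, and 12.5% of the genes compared.

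The 10 domain genes with the highest mean levels were the acute-phase gene Saa1 (13.01 log2 RPKM, range 11.72 to 13.76), the goblet cell trefoil gene Tff3 (12.21), the ferritin gene Fth1 (11.71), the keratin genes Krt8 (11.33) and Krt19 (10.58), Crip1 (11.33), the guanylin gene Guca2a (11.17), Myl6 (10.77), Sycn (10.75, range 8.07 to 11.49) and Prdx6 (10.42, range 7.75 to 11.40). Saa1, Fth1 and Myl6 have near-identical copies with which reads may be shared, so their levels are uncertain. The domains of these genes were 11200 to 39200 bp wide, so none was among the 10 widest. Those of Krt8 and Krt19, at 39200 and 35000 bp, were still far wider than the median domain.

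Genes in the named domains had moderate levels in most cases. Hnf4a was at 7.55 to 8.22 log2 RPKM in all 12 libraries, with group means of 7.81 ± 0.23, 7.93 ± 0.14, 7.93 ± 0.32 and 8.0 ± 0.16 (SD, n = 3) in HFDHFB, HFDLFB, LFDHFB and LFDLFB. Ankrd11, in the widest domain, was at 3.11 to 3.90. Shroom3 was at 4.76 to 5.82 except for 4.20 in LFDHFB replicate 3, and Mgat4a at 5.97 to 7.36 except for 4.89 there. The posterior gene Hoxa13 was at 2.77 to 4.0 except for 1.69 in this library, whereas Hoxb8 was highest in it, at 2.75. Of the 28 tested genes in named domains, 8 were lowest and 8 highest in LFDHFB replicate 3, and of all domain genes 32.5% were lowest there, against 19.7% of all genes. Scraped tissue also varied in other cells: summed smooth muscle markers were at 1044 to 7004 CPM, adipocyte markers at 25.9 to 2344 CPM and epithelium markers at 15349 to 20191 CPM. Whether these moved the domain genes was not tested, and in bulk samples fewer cells of a type and less RNA per cell cannot be told apart.

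No domain gene passed edgeR's quasi-likelihood test of diet, of donor bacteria or of their interaction. Of all 15893 genes tested, 0 were called in each of the 5 comparisons (0%), with an adjusted p threshold of 0.05. At an unadjusted p under 0.05 there were 122 domain genes between HFDHFB and HFDLFB (6.96%, all genes 9.07%), 68 between LFDHFB and LFDLFB (3.88%, all 3.72%), 121 between HFDHFB and LFDHFB (6.91%, all 7.46%), 77 between HFDLFB and LFDLFB (4.39%, all 5.33%) and 163 in the interaction of diet and bacteria (9.30%, all 11.3%). These counts rested on single libraries. For HFDHFB against HFDLFB there were 250 domain genes without HFDHFB replicate 1 (14.2%, all 13.1%) and 51 without HFDHFB replicate 2 (2.90%, all 4.76%). For HFDHFB against LFDHFB there were 291 (16.6%, all 13.2%) and 49 (2.79%, all 4.08%) without the same libraries, and for the interaction 271 (15.4%, all 15.3%) and 99 (5.64%, all 7.43%). For LFDHFB against LFDLFB the count was 133 without LFDHFB replicate 1 and 37 without LFDHFB replicate 3, and for HFDLFB against LFDLFB it was 144 without LFDHFB replicate 3 and 42 without LFDLFB replicate 2. DESeq2, run as an alternative, called 5, 0, 7, 0 and 6 domain genes in that order, where it called 0.411%, 0%, 0.648%, 0.0463% and 0.375% of all genes.

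The median log2 fold change of domain genes lay between -0.08 and -0.00 in the 5 comparisons, and that of all genes between -0.05 and 0.02. Within a comparison, domain genes were below all genes except in the interaction, where the medians were -0.003 and -0.053. The gap was widest for HFDLFB against LFDLFB, at -0.080 for domain genes and 0.004 for all genes. There 33.6% of domain genes and 50.7% of all genes were above 0. Groups did not overlap, with HFDLFB lower than LFDLFB, for 165 domain genes (9.42%, background 6.62%), and 39 were higher (2.23%, background 5.09%). For HFDHFB against HFDLFB the counts were 140 higher (background 8.11%) and 81 lower (background 4.9%). They were 75 higher (background 5.25%) and 85 lower (background 5.57%) for LFDHFB against LFDLFB, and 95 higher (background 7.47%) and 63 lower (background 3.55%) for HFDHFB against LFDHFB. Comparisons that share a group share its libraries.

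The genes called by DESeq2 are given with their values, because edgeR did not call them. Between HFDHFB and HFDLFB, H2afx, the histone variant that marks DNA breaks, was at 4.0, 4.23 and 4.0 log2 RPKM against 2.89, 3.03 and 3.47, with no overlap (log2 fold change 0.93, SE 0.19, edgeR adjusted p 0.495, DESeq2 adjusted p 0.00853). The proliferation gene Tk1, in a domain of 34200 bp, was at 1.33, 1.80 and 1.47 against -0.12, 0.66 and 0.73. Saa3, an acute-phase gene, was at 3.21, 4.67 and 4.70 against 6.91, 5.89 and 6.84, with a log2 fold change of -2.28 (SE 0.64, edgeR adjusted p 0.495). Kpna2, which imports proteins into the nucleus, and Ufsp1 were also called by DESeq2. Between HFDHFB and LFDHFB it called Abcb1a, the drug efflux pump, at 6.85, 6.52 and 6.69 against 7.24, 7.49 and 8.32, with Dgkd, Grcc10, Mrpl12, Mrpl52, Osbpl3 and Ptprr. Its calls in the interaction included H2afx, Jund, Lsm4, Mrpl52 and Mtx1. Jund, an AP-1 subunit, was at 6.54, 6.67 and 6.86 in HFDHFB, 6.44, 6.10 and 6.31 in HFDLFB, 6.21, 6.39 and 5.83 in LFDHFB and 6.77, 6.58 and 6.94 in LFDLFB, with an edgeR adjusted p of 0.386.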

How the data were processed

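The authors aligned the reads to mm9 and deposited 1 list of peak positions per ChIP-seq library, called with SICER for the histone marks and HOMER for HNF4α, with no score or height. For RNA-seq the authors deposited raw counts per gene from featureCounts 1.5.0-p1, after STAR 2.5 (submitters' notes). The counting annotation and its use of strand are not given in the sources used here.

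Peaks that shared 1 bp or more were joined into 1 region. SICER positions were read as 0-based starts with inclusive ends. TSSs, gene bodies and exons were those of protein-coding genes in GENCODE vM1 (NCBIM37), so intergenic means outside such genes. For the choice of printed sites, exons of all annotated genes were avoided. Covered widths were fitted with limma 3.58.1, with regions that had a peak in at least 3 (H3K4me1) or 2 (recipients) libraries, and counts with edgeR 4.0.16 (TMM, filterByExpr, 4 groups in 1 fit) in R 4.3.3. DESeq2 1.42.0 was the alternative. P-values were adjusted by Benjamini-Hochberg over all regions or genes fitted. Log2 RPKM is log2 CPM (prior count 2) less log2 of the merged exon length in kb. Scripts used Python 3.11.15, pandas 2.3.3 and pysam 0.24.0. On data simulated for H3K4me1 by diet, limma recovered 159 of 200 changed regions and called 8 unchanged ones. These changes were 2-fold or 4-fold, up or down, in regions drawn from all those fitted. Domains were already mostly covered and could not widen so much, so this recovery does not apply to them. On data simulated for HFDHFB against HFDLFB, edgeR recovered 113 of 200 changed genes and called 4 unchanged ones. It found 89 of 112 8-fold changes but 24 of 87 2-fold changes, so most 2-fold changes were missed.

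Named were the 10 widest domains, the 5 with the most HNF4α sites bound in all 4 libraries, their genes, members of gene lists, the 10 most highly expressed domain genes and called genes. The members and lists were chosen with earlier results of these data known. Genes on chromosome 18 were counted and not named. Some results for single genes are not reported here.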

Additional observations from a re-analysis of the deposited data

Results flagged for a closer look

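In 2 named domains the libraries of both diets separated in opposite directions in males and females. At Ankrd11 the mean width covered by H3K27ac, HFD minus LFD, was -13000 bp in males and 9733 bp in females. At Shroom3 it was -3200 bp in males and 2067 bp in females. These widths also chose the domains, the difference between the sexes was not tested, and HFD male replicate 1 was the lowest of the 12 libraries in both. As a share of each library's peak base pairs neither separated in opposite directions: at Ankrd11 the females overlapped, and at Shroom3 the males overlapped and LFD females were above HFD females.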

How the results depend on the processing

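With a minimum width of 8000 or 15000 bp, 4801 or 1287 domains were kept, and 1849 when the width had to be covered in at least 6 lists. As shares of the library's peak base pairs, an alternative chosen after seeing the data, 209 male domains were wider with LFD, 85 female domains with HFD and 428 with LFD, and in both sexes 2 with HFD and 20 with LFD. HNF4α sites in domains were 4612 with both libraries of either diet and 8123 with any library. DESeq2 called 5, 7 and 6 domain genes for HFDHFB against HFDLFB, HFDHFB against LFDHFB and the interaction, where edgeR called none. Leaving out 1 library gave 2964 to 3082 domains and 2985 to 3341 HNF4α sites, covered differences between diets of -1.99 to 1.05 Mb in males and 1.78 to 3.25 Mb in females, 0 to 1 domains called for H3K4me1 (1 without HFD male replicate 1) and for HFDHFB against HFDLFB (1 without HFDHFB replicate 2), and 0 for every other comparison. With a replicate block 0 domains and 0 domain genes were called, as without it, and calls over all regions were 5 for H3K4me1, 140 for HFDHFB against HFDLFB and 66 for LFDHFB against LFDLFB. No pairing by replicate number was assumed. Same-number deviations from group means correlated between -0.591 and 0.451 in RNA-seq, with a median of -0.203 against 0.039 for other pairs. The range was -0.029 to 0.069 for H3K4me1 and -0.036 to 0.018 for H3K27ac in recipients. With 2 or 3 libraries per group this cannot exclude a batch shared by libraries of the same number. The ChIP-seq depth is unknown, so the counting error of the widths was not measured.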
